A study of Mus musculus with 7 samples.

Results

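Immunoglobulin heavy chain segments, the gene pieces from which B cells build the heavy chain of an antibody, were measured by 111 of the 11949 probes of an Affymetrix array. These were the probes that the platform annotation pairs with exactly 1 symbol starting with Ighv, Ighd, Ighj, Ighm, Ighg, Igha or Ighe. The probes of Ighv1-62-2 and Ighv1-71 held identical values on all arrays and were counted once, which left 110 members: 108 V segments of 13 families and the constant regions Ighg1 and Ighg2b. No D or J segment and no Ighm, Igha or Ighe probe with a single symbol was among them. RNA came from the paracardial fat depot (4 arrays) and the intra-abdominal fat depot (3 arrays) of wild-type male C57 mice, and the labels name no other allele and no agent. The labels give no age, nor whether the arrays are of separate animals, and the p-values cover the spread of these samples, which may be technical. The question was how the depots differ; the series title is about remodelling of paracardial fat and alcohol dehydrogenase 1.

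An antibody heavy chain gene is assembled in developing B cells, where a V, a D and a J segment are joined by the Rag recombinase and the product is spliced to a constant region. The constant region sets the antibody class, and Ighg1 and Ighg2b encode IgG classes that B cells reach by class switching. A mature B cell or plasma cell mostly expresses 1 rearranged V segment, so the V segments detected in a tissue reflect which clones it holds. Fat depots contain B cells, some of them in lymphoid clusters of the serous cavities. V segments can also be transcribed before they are rearranged, and a V segment probe does not tell rearranged from unrearranged transcripts. Members of a V family are similar in sequence, so probes of a family could share signal. Ighv1-62-3 and Ighv1-72 differed by at most 0.44 on any array, while Ighv1-62-3 itself ranged over 7.23. Closeness alone does not show shared signal, since 2 other pairs within 0.5 on every array were of different families or kinds (Ighv6-4 with Ighv8-2, 0.47, and Ighg1 with Ighv3-1, 0.48), with ranges of only 0.995 and 1.37. Whether probes share signal was not tested, so members are not taken as independent measurements.

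Values are deposited log2 expression values, and differences are paracardial minus intra-abdominal on that scale, not calibrated folds. Array medians lay between 5.97 and 6.36 over 11471 distinct value profiles, and the highest value of each array, from 19.8 to 19.9, acted as a ceiling shared by many probes. Paracardial array 4 and intra-abdominal array 3 had a higher ceiling and lower 5th percentiles (4.01 and 4.03) than the other 5 arrays (4.40 to 4.46), so differences within these 2 arrays and within the other 5 are given beside several results. The labelled tissue was checked against 9 adipocyte genes. Their median was 6.02 and 6.23 on paracardial arrays 1 and 2, near those arrays' overall medians, 9.92 and 9.73 on arrays 3 and 4, and 15.03, 14.95 and 16.38 on intra-abdominal arrays 1 to 3. Adiponectin (Adipoq), the defining adipocyte hormone, was at 5.18 and 5.53 on paracardial arrays 1 and 2. Results without those 2 arrays are therefore given too.

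Heavy chain members were mostly higher in paracardial fat, by very different amounts on its 4 arrays. Paracardial arrays 1 to 4 had member medians of 6.80, 7.12, 8.52 and 11, intra-abdominal arrays 1 to 3 of 6.91, 6.13 and 5.40. Paracardial array 4 stood highest and intra-abdominal array 3 lowest, while the medians of paracardial array 1 and intra-abdominal array 1 were nearly level. The difference was positive for 106 of the 110 members (96.4%), against 58.3% of all profiles, and its median was 2.30 against 0.09 over all profiles. It reached at least 2 for 60 members (54.5%, against 8.4% of all profiles). It was at least 4 for 12 members (10.9%, against 1.07%). In bulk tissue, fewer cells of a type and less RNA per cell cannot be told apart.

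**Figure D1:**
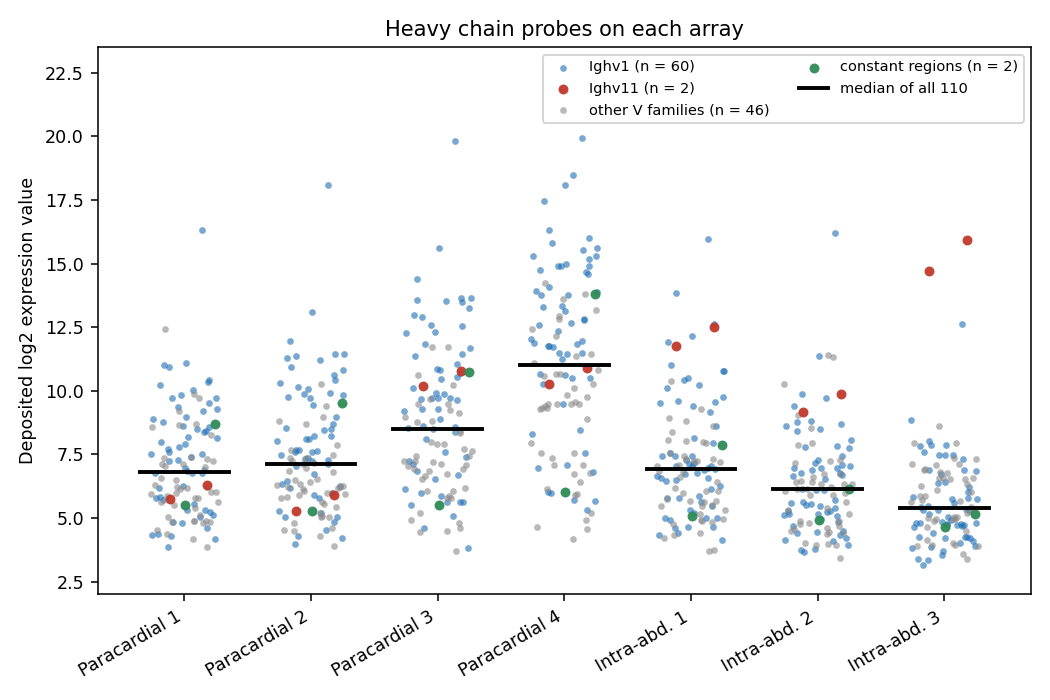
Deposited log2 value (vertical axis) of each of the 110 heavy chain members on each of the 7 arrays (horizontal axis), with points coloured by kind (Ighv1, Ighv11, other V families, constant regions) and black bars at the array's median. Medians run from 5.40 on intra-abdominal array 3 to 11 on paracardial array 4, and the Ighv11 points stand high on the intra-abdominal arrays.

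Few members passed the test across all profiles. With limma (Benjamini-Hochberg adjusted p under 0.05 over 11471 profiles), 2 members were higher and none was lower (1.82% called, 34 at an unadjusted p under 0.05). Over all profiles 5.87% were called higher and 2.53% lower, 8.4% in all, so the share of members called was below the background although their median difference was larger. Higher calls outnumbered lower ones over all profiles by 673 to 290, but by 526 to 488 after quantile normalization again, 613 to 598 after cyclic loess and 681 to 381 after median centring, which moved the median of all profiles from 0.09 to -0.05. Under these scalings 3 members passed each time, and 99 to 102 had positive differences. With the 2 arrays of the higher ceiling as a block, 5 members were called, where of all profiles 1284 were higher and 728 lower. With array weights 29 members were called (27 higher, 2 lower), where 2655 profiles were higher and 1811 lower. Single arrays left out gave 0 to 4: 4 without paracardial array 4, 2 without array 1 and 0 in the other fits. Calls over all profiles varied too. Higher and lower calls numbered 525 and 205 without paracardial array 4, and 121 and 58 without array 1. They were 275 and 90 without array 2, and 275 and 136 without array 3. Without intra-abdominal arrays 1, 2 and 3 in turn they were 441 and 289, 106 and 61, and 662 and 317. The spread was also larger: the median SD among paracardial arrays was 2.01 for the members and 0.44 for all profiles. At the unadjusted level the share of members was 30.9%, all of them higher, against 23.8% of all profiles in either direction and 15.8% higher. All paracardial arrays lay above all intra-abdominal arrays for 38 members (34.5%, against 17.3% of all profiles), and the reverse held for none (8.05% of all profiles).

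Paracardial array 4 carried much of the shift. It held the highest value of 93 members (84.5%, against 27.8% of all profiles), and intra-abdominal array 3 the lowest value of 77 (70%, against 22.6%). Without paracardial array 4 the median difference over the members was 1.23, with 102 positive. The 5 arrays that share the lower ceiling gave 0.98, with 92 positive. The other 2 arrays gave 5.36, with 107 positive. Without paracardial arrays 1 and 2, the arrays with few adipocyte transcripts, it was 3.82 with 106 positive. No member passed the limma test in that fit, and of all 11471 profiles only 1 did, called lower. At an unadjusted p under 0.05 there were 71 members, and the share of all profiles at that level is not given here.

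The 2 members that passed were V segments of the Ighv1 family, the largest V family of the mouse. Ighv1-82 lay at 10.44, 11.46, 13.50 and 15.18 on paracardial arrays 1 to 4, against 6.92, 6.71 and 5.32 on intra-abdominal arrays 1 to 3. Every paracardial value was higher than every intra-abdominal one, and the lowest paracardial array was 1. The means were 12.65 ± 2.12 (SD, n = 4) and 6.32 ± 0.87 (SD, n = 3), a difference of 6.33 ± 1.15 (SE; 95% confidence interval 3.58 to 9.08; limma adjusted p = 0.0243). Its call held without paracardial array 1 or 4 and ended without each of the other 5 arrays, within the 5 lower-ceiling arrays (adjusted p = 0.054) and without paracardial arrays 1 and 2 together (0.0934). Its adjusted p ranged from 0.00239 to 0.104 over 20 alternatives, and its difference from 4.59 to 8.03.

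Ighv1-4 lay at 6.26, 9.72, 10.86 and 9.49 on the paracardial arrays and at 5.30, 4.44 and 3.71 on the intra-abdominal arrays. The depots did not overlap here either, but paracardial array 1 came within 1 unit of intra-abdominal array 1, and array 3, not 4, was highest. The difference was 4.6 ± 1.07 (SE; 95% confidence interval 2.04 to 7.16; limma adjusted p = 0.0487). The call lay at the edge of the threshold and ended whichever single array was left out, except paracardial array 1, with adjusted p from 0.0317 to 0.204 over 20 alternatives.

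Other Ighv1 members had differences of similar size and did not pass. Ighv1-76 fell just short (4.0 ± 0.95, SE; limma adjusted p = 0.0516), with 8.51, 8.47, 9.71 and 11.86 on paracardial arrays and 6.90, 5.26 and 4.74 on intra-abdominal arrays, which did not overlap. It passed in 9 of 20 alternatives. Ighv1-80 lay at 8.79, 11.96, 14.39 and 13.30 against 7.57, 8.42 and 5.33 (difference 5.01, adjusted p = 0.0828), and these did not overlap either. In Ighv1-64 (4.44, adjusted p = 0.164), Ighv1-42 (4.30, 0.199), Ighv1-43 (4.15, 0.137) and Ighv1-55 (4.17, 0.275) paracardial array 1 lay below the highest intra-abdominal array. Ighv1-55 reached 18.49 on paracardial array 4 against 10.04, 11.21 and 13.52 on arrays 1 to 3, and its intra-abdominal values were 10.24, 9.70 and 7.49. Its difference was 2.45 without paracardial array 4.

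Other bright Ighv1 members showed the same spread. Ighv1-2, which RefSeq lists as a V segment pseudogene, was at 16.32, 18.11, 19.82 and 19.93 on paracardial arrays and 15.95, 16.22 and 12.61 on intra-abdominal arrays. It was at the ceiling on paracardial arrays 3 and 4, so its difference of 3.62 (adjusted p = 0.129) is limited from above by the scale. It was the only member that reached the ceiling on any array. Ighv1-53 differed by 4.14 (0.246), Ighv1-34 by 4.11 (0.212) and Ighv1-69, the member with the largest SD among intra-abdominal arrays (3.44), by 3.28 (0.338). Without intra-abdominal array 3, Ighv1-53 differed by 2.71 and Ighv1-69 by 1.65, without intra-abdominal array 1 Ighv1-69 differed by 5.08, and without paracardial array 4 Ighv1-34 differed by 2.71. Ighv1-5 differed by 2.28 (0.50), by 1.01 with intra-abdominal array 3 left out, 3.91 with intra-abdominal array 1 left out, 1.13 with paracardial array 4 left out, and by -0.14 within the 5 lower-ceiling arrays, where intra-abdominal array 1, at 13.84, was above the paracardial arrays.

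Ighv1-81 had the largest SD among paracardial arrays (3.78) of all members. It lay at 5.78, 6.35 and 7.24 on paracardial arrays 1 to 3, within the intra-abdominal range of 4.81 to 7.42, and at 13.92 on paracardial array 4. The depot difference of 2.52 ± 2.03 (SE; limma adjusted p = 0.516) was 0.66 without that array.

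**Figure D2:**
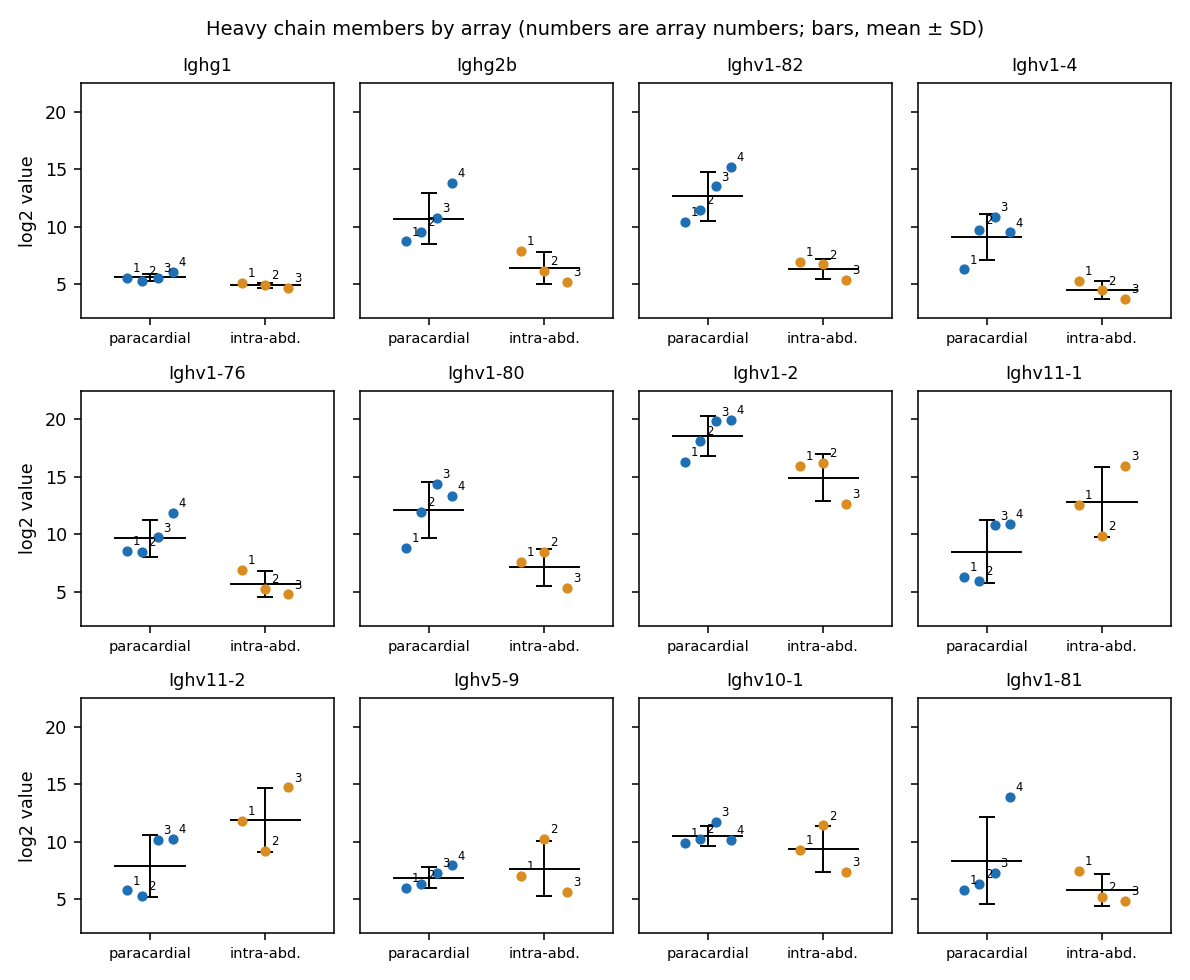
Deposited log2 value (vertical axis) of 12 heavy chain members on the 4 paracardial and 3 intra-abdominal arrays, with small numbers giving the array, horizontal lines the means and bars the SD. Ighv1-82 and Ighv1-4 passed the test across all profiles, Ighv11-1 and Ighv11-2 lay lower in paracardial fat with overlapping depots, and in Ighv1-81 paracardial array 4 alone reached 13.92.

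Of the constant regions, neither passed. Ighg2b, the constant region of IgG2b, lay at 8.71, 9.52, 10.75 and 13.82 on the paracardial arrays and at 7.87, 6.16 and 5.17 on the intra-abdominal arrays. The depots did not overlap, and the gap between paracardial array 1 and intra-abdominal array 1 was smaller than the spread among paracardial arrays. The difference was 4.30 ± 1.29 (SE; 95% confidence interval 1.22 to 7.38; limma adjusted p = 0.0976), 2.64 within the 5 lower-ceiling arrays and 8.65 between the other 2. Ighg1, the constant region of IgG1, lay at 5.51, 5.26, 5.51 and 6.04 against 5.08, 4.91 and 4.66 without overlap, a difference of 0.69 ± 0.24 (adjusted p = 0.137). Both constant regions passed in 1 of the alternatives, the fit with array weights.

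Probes whose annotation names several genes, at least 1 of them a heavy chain gene, were left out of the members, and 10 of them were read in the same fit. The other genes named can be of another kind: 1 of the 10 names Ighm together with the light chain segment Igkv8-27. Of these, 1 names the IgA and IgD constant regions (Igha, Ighd) with Ighg2c, J segments and Ighv14-2. It lay at 6.56, 6.6, 7.76 and 9.56 on the paracardial arrays and 6.65, 5.86 and 6.09 on the intra-abdominal arrays (difference 1.42, limma adjusted p = 0.321). Paracardial array 4 was highest again and the depots overlapped. All 10 differences were positive, with a median of 0.86, and none passed.

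The V families differed in size of difference and in the arrays that carried it. The 60 Ighv1 members had a median difference of 3.15, all of them positive, with 2 called, 25 at an unadjusted p under 0.05 and 28 without overlap between the depots. The 48 V segments of other families had a median of 0.99, with 44 positive, none called and 8 without overlap, a share close to the 17.3% of all profiles. Without paracardial array 4 these medians were 2.08 and 0.48. The difference between families was not tested. On paracardial array 4 the Ighv1 median was 12.63, where paracardial arrays 1 to 3 had 7.55, 8.06 and 9.72 and the intra-abdominal arrays had 7.04, 6.13 and 5.23.

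Families Ighv2 and Ighv14 followed with other patterns. The 8 Ighv2 members had a median difference of 1.53 (0.85 without paracardial array 4), with 8 positive and 4 without overlap (17.3% of all profiles), and their median was 7.83, 7.67, 8.17 and 10.82 on the paracardial arrays and 7.22, 6.39 and 6.55 on the intra-abdominal arrays. Ighv2-4 lay at 8.58, 8.79, 8.98 and 12.44 against 6.84, 6.08 and 7.13 (difference 3.01, limma adjusted p = 0.118). Its paracardial arrays 1 to 3 lay close together, and without array 4 the difference of 2.10 passed (adjusted p = 0.0315). Ighv2-2 (difference 3.01, adjusted p = 0.159; 0.0287 without paracardial array 4) and Ighv2-9-1 (2.56, 0.147; 0.0262) showed the same. The 4 Ighv14 members had a median of 13.39 on paracardial array 4, against 6.53, 6.12 and 7.68 on the other paracardial arrays and 5.59, 4.61 and 6.56 on the intra-abdominal arrays. Ighv14-1 reached 13.81 and Ighv14-4 reached 13.60 on that array, and neither passed (limma adjusted p = 0.323 and 0.319). Their differences, 3.42 and 3.36, were 1.81 and 1.74 without it.

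**Figure D3:**
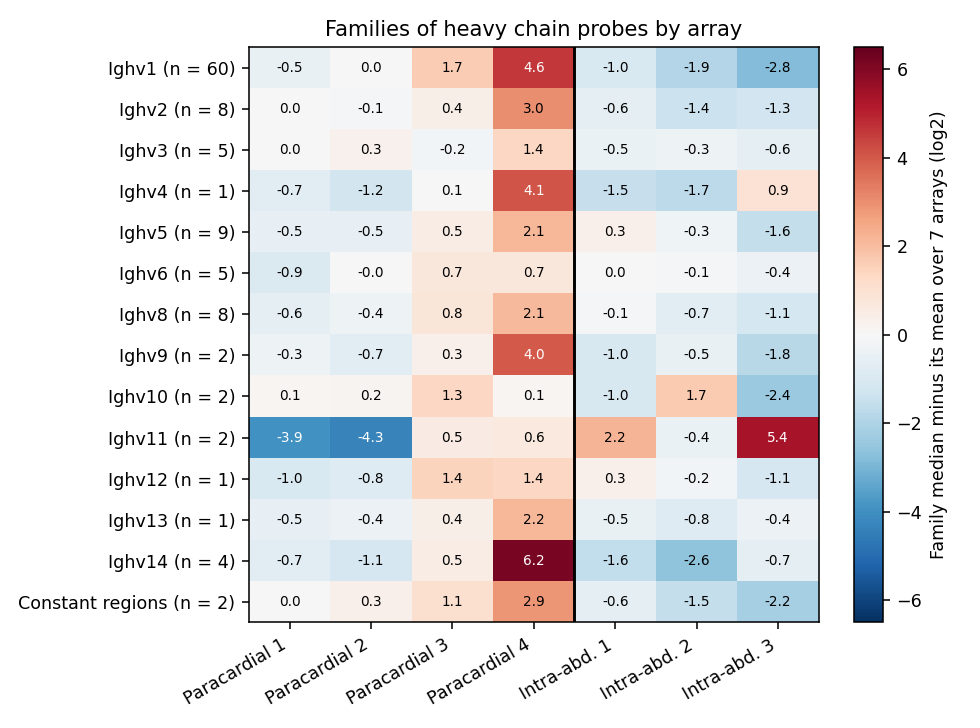
Median log2 value of each V family and of the constant regions on each array, minus the family's mean over the 7 arrays, as colour and number (rows, families with their number of members; columns, arrays; the black line parts the depots). Ighv1 and Ighv14 are highest on paracardial array 4 (medians of 12.63 and 13.39), Ighv11 is highest on intra-abdominal array 3 (15.34) and lowest on paracardial arrays 1 and 2 (6.02 and 5.60), and Ighv10 is highest on intra-abdominal array 2 (11.37).

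The Ighv11 family ran the other way. Ighv11 and Ighv12-3 are V segments known for recurring in B-1 cells, the B cells of the peritoneal and pleural cavities, in antibodies that bind phosphatidylcholine. Ighv11-1 lay at 6.28, 5.92, 10.76 and 10.90 on paracardial arrays and at 12.52, 9.86 and 15.94 on intra-abdominal arrays. Ighv11-2 lay at 5.75, 5.29, 10.18 and 10.26 against 11.77, 9.19 and 14.73. In each, paracardial arrays 1 and 2 were lowest and intra-abdominal array 3 was highest, while intra-abdominal array 2 lay below paracardial arrays 3 and 4. The differences were -4.31 ± 1.90 (SE; 95% confidence interval -8.84 to 0.23; limma adjusted p = 0.231) and -4.02 ± 1.82 (-8.36 to 0.31; 0.242), and neither passed. Adipocyte genes shared part of this order. Their medians were also lowest on paracardial arrays 1 and 2 (6.02 and 6.23), higher on arrays 3 and 4 (9.92 and 9.73) and highest on intra-abdominal array 3 (16.38). On intra-abdominal arrays 1 and 2 they were 15.03 and 14.95, so array 2 lay above paracardial arrays 3 and 4, unlike the pair. The macrophage and dendritic list was likewise lowest on paracardial arrays 1 and 2 (6.63 and 6.385) and highest on intra-abdominal array 3 (10.40). The part of either list in the result was not tested.

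These 2 probes moved nearly in step, apart by 0.53 to 1.22 on the 7 arrays, and whether they read the same transcripts was not tested. Both differences stayed negative under all 20 alternatives, from -5.76 to -1.94 for Ighv11-1. Within the 5 arrays of the lower ceiling they were -3.53 and -3.40, between the other 2 arrays -5.04 and -4.47, and without intra-abdominal array 3 -2.72 and -2.61. Ighv12-3 did not share the pattern, with 7.05, 7.23, 9.48 and 9.40 on paracardial arrays and 8.38, 7.86 and 6.93 on intra-abdominal arrays (difference 0.57, adjusted p = 0.717). Intra-abdominal array 3, highest for Ighv11, was lowest for Ighv12-3.

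Beside Ighv11, 2 more members had negative differences, Ighv5-9 and Ighv5-12-4, both of the Ighv5 family, whose segments lie at the end of the V cluster nearest the constant regions. Ighv5-9 lay at 5.94, 6.28, 7.24 and 7.93 on paracardial arrays and at 7.04, 10.27 and 5.62 on intra-abdominal arrays. Intra-abdominal array 2 alone stood above the paracardial range, and the difference was -0.79 (limma adjusted p = 0.729), turning to 0.52 without that array. With array weights it was -3.49 and passed (adjusted p = 0.0112). The 9 Ighv5 members had a median difference of 0.66, which was 0.11 without paracardial array 4 and -0.30 within the 5 lower-ceiling arrays. Ighv10-1 and Ighv10-3 were also high on intra-abdominal array 2 (11.41 and 11.34), where array 1 had 9.29 and 7.96 and array 3 had 7.37 and 7.12, and the paracardial values lay between 9.40 and 11.74. Their differences were 1.14 and 0.91 (limma adjusted p = 0.539 and 0.633), 0.145 and 0.062 without intra-abdominal array 3 and 2.17 for each without array 2.

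Position in the locus was compared through the order of the genes in RefSeq (assembly GRCm38.p6), in which all 110 members were found by symbol. The 54 V segments nearer the constant regions had a median difference of 1.27, with 50 positive and 14 without overlap. The 54 farther ones had a median of 3.10, with 54 positive and 22 without overlap, where 17.3% of all profiles had none. Without paracardial array 4 the medians were 0.75 and 1.96. Most of the farther segments are Ighv1, so position and family cannot be told apart in these numbers. The members next to the Ighv11 segments in that order had positive differences (Ighv3-1 before them, 0.75, Ighv14-2 between them, 2.41, and Ighv14-3 after them, 1.53; Ighv14-2 adjusted p = 0.485). Ighv8-12, a segment among Ighv1 genes, lay at 9.50 and 9.56 on paracardial arrays 3 and 4 and at 5.77 and 5.09 on arrays 1 and 2, against 4.88, 3.97 and 3.92 (difference 3.22, adjusted p = 0.177).

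**Figure D4:**
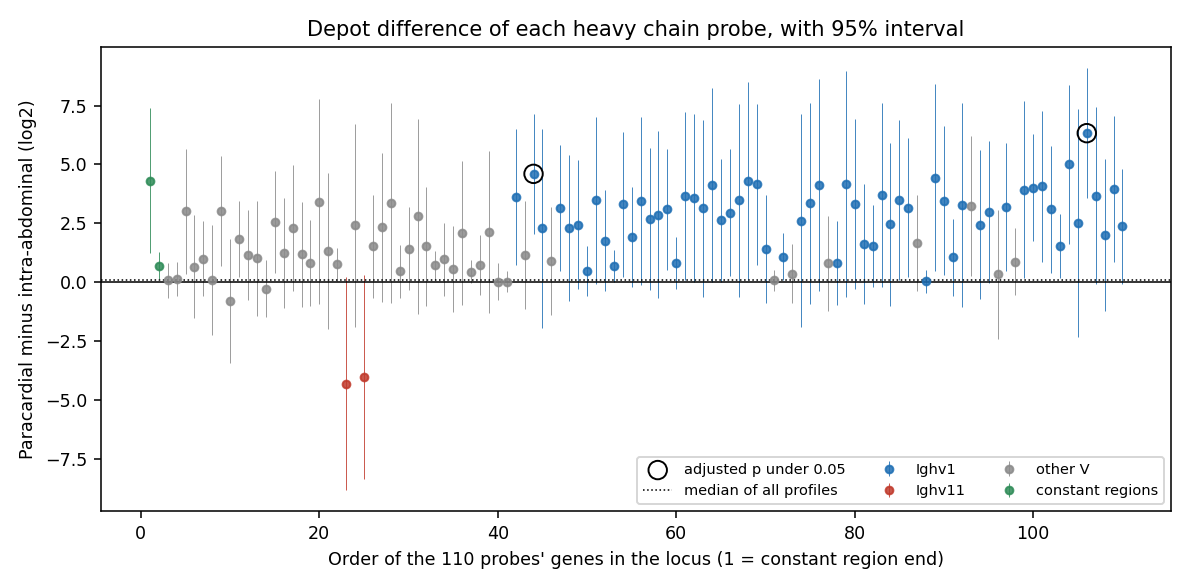
Depot difference (vertical axis, paracardial minus intra-abdominal, log2) of each of the 110 members in the order of their genes in the locus (horizontal axis, from the constant region end), with 95% confidence intervals from limma. Circles mark the 2 members past the threshold, the dotted line is the median of all profiles (0.09), and the Ighv11 pair lies at -4.31 and -4.02 among positive neighbours.

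Other genes of the antibody pathway were read from 13 lists of 117 entries; the entries without a single-symbol probe were not analysed here. Over all profiles 5.87% were called higher and 2.53% lower, the background for the calls in each list. Of 10 B cell surface and signalling genes, 1 was higher and 9 did not pass, with a median difference of 0.58. All 10 were positive and 6 did not overlap between the depots, against 58.3% and 17.3% of all profiles. The gene that passed was Ly6d (4.34, limma adjusted p = 0.0336), a surface protein of B cell progenitors that other cell types also make. Cd79a, the signalling chain of the B cell receptor, was at 5.99, 5.71, 6.38 and 6.56 on paracardial arrays and 5.89, 5.89 and 5.43 on intra-abdominal arrays. Its partner Cd79b was at 6.21, 6.21, 7.0 and 8.35 against 5.73, 5.97 and 5.56. Both were highest on paracardial array 4, where the heavy chain median was highest, with much smaller differences (0.42 and 1.19, limma adjusted p = 0.410 and 0.247). Ms4a1, a B cell surface protein of the list, differed by 1.49 (0.214). It was at 5.30, 5.53, 7.45 and 7.35 on paracardial arrays and 4.69, 5.37 and 4.70 on intra-abdominal arrays, and the depots overlapped.

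None of 6 plasma cell genes passed (median 0.36, 1 at an unadjusted p under 0.05). The joining chain Jchain, which links IgM and IgA units, came nearest, with 8.78, 8.41, 10.68 and 11.11 on paracardial arrays and 7.52, 7.61 and 6.47 on intra-abdominal arrays (2.54, limma adjusted p = 0.0940). Its depots did not overlap, and paracardial arrays 3 and 4 were highest. Of 5 recombination and end joining genes 3 were higher, where 5.87% of all profiles were. They were the nucleotide-adding polymerase Dntt (7.05, adjusted p = 0.0359), the recombinase gene Rag2 (4.65, 0.0221) and the DNA-bending protein Hmgb2 (3.83, 0.0227). Dntt and Rag2 act in developing T cells as well as B cells. None of Ly6d, Dntt, Rag2 and Hmgb2 passed without paracardial array 1, without paracardial array 3 or without intra-abdominal array 2. With all arrays 673 profiles were higher and 290 lower. In these fits, in the same order, the counts fell to 121 and 58, 275 and 136, and 106 and 61. Ly6d also lost its call without intra-abdominal array 1 or 3, and Dntt without paracardial array 2 or 4 or intra-abdominal array 3.

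Smaller lists held few measured genes. Of 3 class switch and somatic mutation genes the mismatch repair gene Msh6 was higher (2.84, limma adjusted p = 0.0237), and the others did not pass. Over all profiles 5.87% were called higher. Msh6 passed, among single arrays left out, only without paracardial array 4 or intra-abdominal array 1. None passed among 1 octamer factor gene (the coactivator Pou2af1, 0.84, 0.331), 1 surrogate light chain gene (Vpreb2, -0.03, 0.971) and 3 immunoglobulin receptor genes (Fcgr3, an Fc receptor, -0.87, 0.406).

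Markers of other cells moved on the same arrays. Of 6 T cell genes 1 was higher, the adaptor Lat (4.03, limma adjusted p = 0.0430), where 5.87% of all profiles were. List medians were 9.70, 9.46, 10.64 and 12.46 on paracardial arrays and 8.13, 6.07 and 5.37 on intra-abdominal arrays. All 6 were positive and none overlapped between the depots (58.3% and 17.3% of all profiles), with a median of 4.06. Cd8a (6.32, 0.0613) and Cd8b1 (5.67, 0.0899) differed by more than Lat and did not pass. Cd8b1 lay at 17.28, 16.25, 17.43 and 19.09 on paracardial arrays and at 15.98, 10.50 and 9.055 on intra-abdominal arrays. Of 4 thymocyte genes 2 were higher (Dntt and Rag2) and 2 did not pass. Of the latter, Ptcra differed by 1.58 (limma adjusted p = 0.207). Cd1d1 went the other way (-3.29, 0.0602), with every paracardial value below every intra-abdominal one. Of 9 adipocyte genes 6 were lower, where 2.53% of all profiles were, and 3 did not pass. Those that passed included leptin (Lep, -8.53, 0.00903), the droplet protein Plin4 (-8.13, 0.00903) and Cidec (-7.61, 0.0300). Lep and Plin4 passed whichever single array was left out, Cidec only without paracardial array 4, and Lat only without intra-abdominal array 1. None passed among 4 macrophage and dendritic genes (Csf1r -2.42, 0.107), 1 lymph node stroma gene (the B cell chemokine Cxcl13, 1.40, 0.703) and 3 mesothelial genes (Upk1b -0.88, 0.482). Cxcl13 lay at 11.38 and 13.00 on paracardial arrays 3 and 4 and at 6.44 and 6.51 on arrays 1 and 2. Its intra-abdominal values were 6.53, 9.01 and 8.25. The part of these cell types in the heavy chain differences was not tested.

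Light chain and T cell receptor segments were set beside the heavy chain members, on the same arrays and in the same fit. Of 80 light chain segments 16 were higher, 79 had a positive difference and 34 did not overlap between the depots, with a median of 2.08. Of 113 T cell receptor segments 22 were higher, 111 were positive and 78 did not overlap, with a median of 1.49. Over all profiles 5.87% were called higher, 58.3% were positive and 17.3% did not overlap. Medians on paracardial arrays 1 to 4 were 7.67, 8.02, 9.50 and 10.08 for light chains and 6.55, 6.18, 6.66 and 7.98 for T cell receptor segments. On intra-abdominal arrays 1 to 3 they were 6.88, 6.34 and 5.28, and 5.51, 4.98 and 4.67. The median SD among paracardial arrays was 2.01 for heavy chain, 1.56 for light chain and 0.78 for T cell receptor segments. The order of the median differences rested on paracardial array 4: without it they were 1.23 for heavy chain, 1.43 for light chain and 1.17 for T cell receptor segments. Within the 5 lower-ceiling arrays they were nearly level, at 0.98, 1.02 and 1.02. The differences between the kinds of segment were not tested.

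**Figure D5:**
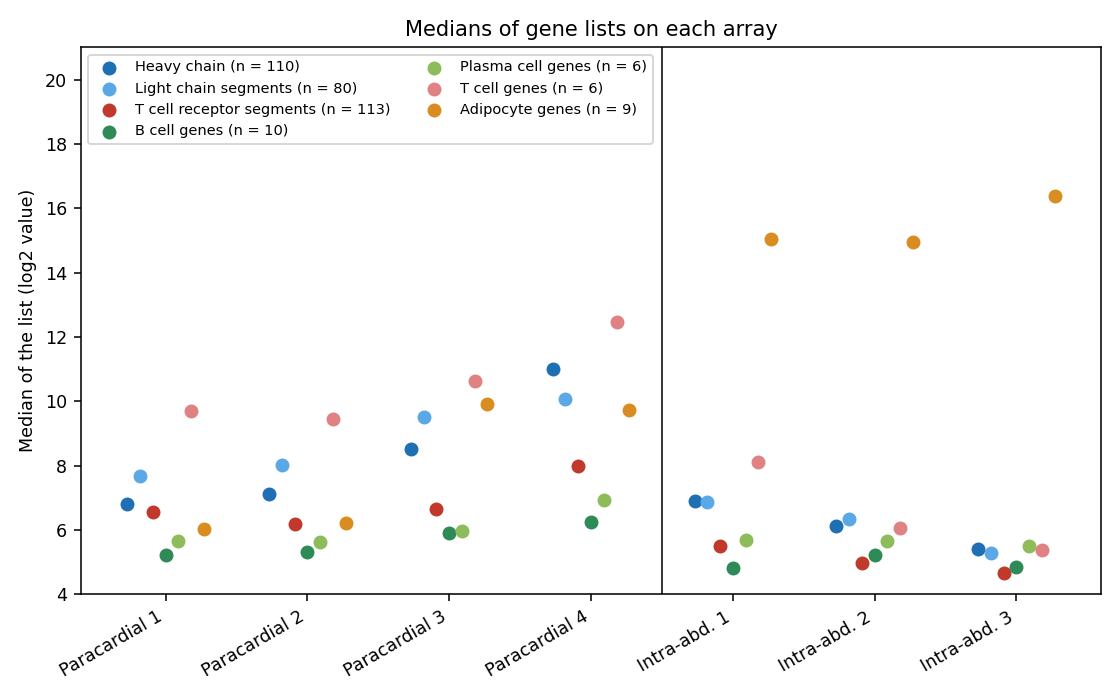
Median log2 value (vertical axis) of 7 gene lists on each of the 7 arrays (horizontal axis), with the number of measured members in the legend. Heavy and light chain medians are highest on paracardial array 4 (11 and 10.08), B cell genes stay between 4.82 and 6.25, and adipocyte genes lie at 14.95 or above on the intra-abdominal arrays only.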

How the data were processed

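Expression was measured on 7 Affymetrix arrays. The authors deposited log2 values, 1 for each probe on each array. The submitters' processing notes name RMA and, as software, Affymetrix Expression Console, per the labels. Tool versions, background settings, centring and the genome build were not given in the sources used here. No detection calls or scanner files were used, so signal over background is unknown, and precision is limited by the number of arrays. Of 11949 probes, 9352 had 1 distinct symbol in the platform annotation, 522 several and 2075 none. Probes with identical values on all arrays were merged, leaving 11471 profiles, and none was filtered.

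The depots were compared by limma (version 3.58.1, R version 4.3.3; functions lmFit and eBayes, two-sided, 5 residual and 1.69 prior degrees of freedom), adjusted by Benjamini-Hochberg over all profiles at 0.05. The fitting step was tested on simulated data. Values within 0.1 of an array's highest were called at the ceiling. Python 3.11.15 with pandas 2.3.3, numpy 2.4.6 and matplotlib 3.10.9 did the rest.

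Members and lists were chosen with earlier results of these data known. The naming rule took both constant regions, called members, the largest differences until 10 were named, the 5 brightest V segments, the largest SD per depot and, per list, up to 3 genes past the threshold or the 1 with the largest difference. It gave 16 members. Named after their values were seen were 13 others (such as Ighv11-2, Ighv1-76, Ighv12-3 and those of Ighv2, Ighv5, Ighv10 and Ighv14). So were Adipoq, Cd79a, Cd79b, Ms4a1, Ptcra, Cd1d1, Cd8a and Cd8b1. Where a list gene had several profiles, the brightest was used. Same-numbered arrays did not deviate together over all profiles (r = 0.034, 0.058 and -0.505). Arrays of different numbers reached 0.473 (paracardial 3 with intra-abdominal 1), so these values cannot show whether samples are paired. The numbers were not taken to pair samples. Alternatives were 2 filters on dim probes (25% and 50%), quantile normalization again, median centring, cyclic loess, trend with robust fitting, array weights, a replicate block, an array set block, other probe sets, single arrays left out and 2 subsets of arrays.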

Additional observations from a re-analysis of the deposited data

Results flagged for a closer look

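Values of the 4 paracardial arrays were checked for an array that lay apart from the rest, as its gap to the nearest array divided by the range of the 4 (the limit is the critical value of Dixon's test at 95%). Of 57 values checked (named members and family and list medians), 7 passed that limit. Its nominal rate is about 1 in 20, but 13.2% of all profiles passed it. Ighv2-2, Ighv2-4 and Ighv2-9-1 were named after their values were seen, so the count is a description and not a test. Paracardial array 4 lay apart and highest in Ighv2-2 (0.963), Ighv2-4 (0.899), Ighv2-9-1 (0.857) and the median of the Ighv2 family (0.843), which share members. It also lay highest and apart in the medians of the class switch and somatic mutation list (0.902) and of the immunoglobulin receptor list (0.965). In the median of the 2 Ighv10 members paracardial array 3 lay apart and highest (0.969). Over all members, 8 of 110 (7.27%) passed the limit, 7 of them with array 4 highest, against 1511 of all 11471 profiles (13.2%).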

How the results depend on the processing

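The median difference over the heavy chain members stayed positive under all 20 alternatives (0.98 to 3.82; 1.23 to 2.81 with single arrays left out). The number of members called, 2, was 5 with the array set as a block (of all profiles 1284 higher, 728 lower). It was 29 with array weights (2655 and 1811) and 1 with identical probes not merged. It was 0 without paracardial arrays 1 and 2 (0 and 1), 0 with the replicate block and 0 to 4 without single arrays. The other 8 alternatives gave 3, but not always the same members. Within the 5 arrays of the lower ceiling they were Ighv2-2, Ighv2-4 and Ighv2-9-1, and in the rest Ighv1-4, Ighv1-76 and Ighv1-82. The replicate block treats numbers as pairs, though whether they pair samples is not known, and paracardial array 4 was its own level. With it limma called no profile at all, and the median difference was 1.23. At an unadjusted p under 0.05 there were 19 members, and the share of all profiles at that level is not given here. Within the 5 arrays of the lower ceiling, Ighv1-5 (-0.14), Ighv12-3 (-0.20) and Vpreb2 (0.35) changed sign. With array weights Ighv12-3 (-0.42), Ighv10-1 (-0.83), Ighv10-3 (-1.13), Cxcl13 (-1.41) and Vpreb2 (0.56) did. Ighv5-9 ranged from -1.81 to 0.52 with single arrays left out (0.52 without intra-abdominal array 2), and was called lower with array weights (-3.49, adjusted p = 0.0112), as was Ighv5-6 (-1.83). Vpreb2 was also positive after quantile normalization (0.013), with the replicate block (0.11) and without intra-abdominal array 3 (0.21) or paracardial array 3 (0.094) or 4 (0.11), and ranged from -0.22 to 0.21 with single arrays left out. Family medians kept their sign under the 3 scalings, but turned negative within the 5 arrays for Ighv5 (-0.30), Ighv8 (-0.02) and Ighv12 (-0.20), and with array weights for Ighv5 (-0.42), Ighv10 (-0.98) and Ighv12 (-0.42). The cause of these changes was not tested. Ighv1-82 kept its call in 12 and Ighv1-4 in 9 of the 20.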
